A study of Capra hircus with 30 samples.

Results

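There were 58 features with an FPKM above 0 in each of 30 libraries of goat granulosa cells, out of 20125 features in the table, or 0.288%. They were chosen by that criterion alone, so their presence in every library is the criterion and not a finding. The somatic cells surrounding the oocyte in the follicle were taken from ovaries of Ji'ning grey goats, and total RNA depleted of ribosomal RNA was sequenced. High and low fertility goats differed in the number of young per birth, which the series text gives as above 3 against below 2 and the study's methods as at least 3 against at most 2. The groups were HLG, HMG and HSG (large, medium and small follicles of high fertility goats) and LLG, LMG and LSG (the same sizes in low fertility goats), with 5 libraries each, numbered 5, 7, 8, 9 and 10. Goats were untreated as far as the labels say, and their age is not given there. Per the study's methods, each class comprised several goats, and the cells from follicles of 1 size class were split into samples of few cells. Which goats a library comes from is not given, and p-values below measure the spread between these libraries, which may be technical. In bulk libraries of this kind, fewer cells of a type and less RNA per cell cannot be told apart.

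Granulosa cells feed the oocyte, respond to follicle stimulating hormone and turn androgens into estrogens as the follicle grows. The EGF receptor, 1 of the 58 features, relays the signal of the ovulatory hormone surge through EGF-like ligands of the follicle, and other named members serve peroxisomes, mitochondria, the cell cycle and lipid sensing. Depletion of ribosomal RNA leaves both polyadenylated and other RNA in a library, so such libraries can hold noncoding transcripts beside messenger RNA. In this table all 17945 features that RefSeq lists were protein coding, and the other features had no listed type.

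Libraries differed in how many features they held, and this bears on every value below. Between 301 (LLG-7) and 9256 (LMG-9) features were above 0 FPKM. The 4 libraries under 1000 such features were LLG-7, HSG-5, LLG-5 and LLG-10, and results that rest on them are given without them as well. Another set of 4 libraries, HLG-5, HSG-5, LLG-5 and LLG-7, is absent from the study's list of mapped libraries. Their summed FPKM was 33640 to 46830, below the 55094 to 82952 of the other 26. FPKM divides fragments by transcript length and by the mapped total of a library, and read totals were not used here, so no counting interval is given. The labelled cell type could not be checked well, since none of the 7 granulosa cell genes found in the table, 0 of 7, had a value in every library. INHBA, a subunit of activin and inhibin, was above 0 in 14 libraries, CYP19A1, the aromatase, in 10, and FSHR, the hormone receptor that defines these cells, in 1. Of the genes marking other cells, 5 oocyte genes were above 0 in 1 to 6 libraries, the theca cell gene STAR in 7, and 3 immune, 1 erythroid and 3 endothelial genes in 1 to 6.

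Of the 58 features, 35 had only an MXLOC identifier, a kind of name that the sources used here do not explain, and 23 had an NCBI gene number. The 35 were 1.61% of all 2179 MXLOC features, whereas the 23 were 0.128% of the 17945 features that RefSeq lists as protein coding. Both types of feature were above 0 in a median of 5 libraries. Of the 23 numbered genes, 12 had a gene symbol and 11 a provisional LOC name, and 8 of the latter shared a gene span of 681 to 684 bp. Counting downward from the criterion, 10 features were above 0 in 29 libraries, 14 in 28, 16 in 27, 22 in 26 and 32 in 25. The last step thus held more features than any of the steps from 25 to 29.

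**Figure D1:**
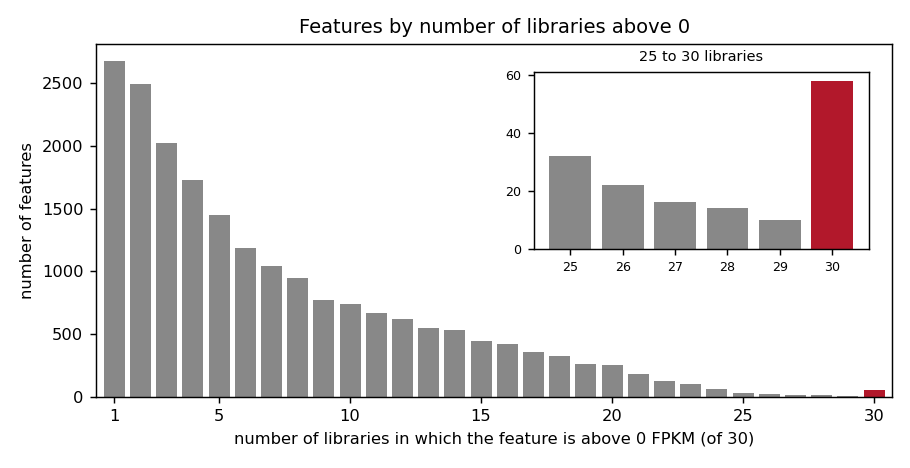
Number of features (vertical axis) by the number of libraries in which they were above 0 FPKM (horizontal axis, 1 to 30), with the steps from 25 to 30 libraries enlarged in the inset. The bar at 30 libraries, in red, holds 58 features and stands above the bars from 25 to 29 libraries, which hold 10 to 32.

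Members just inside the criterion reached almost 0 in some library. MMGT1, a subunit of the membrane protein insertion complex of the endoplasmic reticulum, was at 0.02 FPKM in LLG-5, MXLOC_1311065 at 0.02 FPKM in LLG-7 and PEX2 at 0.05 FPKM in LLG-10. Just outside, MXLOC_1269438 had a mean of 90.0 FPKM but was listed at 0 in HSG-5. MXLOC_353467, with a mean of 77.7 FPKM, was listed at 0 in LLG-7, and MXLOC_259096, with a mean of 73.4 FPKM, at 0 in LSG-10. These 3 features had higher means than most of the numbered members, so presence in every library did not order the features by level. At least 0.5 FPKM in every library was reached by 49 of the 58, and at least 1 FPKM by 47.

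Most of the FPKM of a library lay in the members. In large follicles they held 85.7% ± 4.53 of it in HLG and 88.1% ± 2.17 in LLG, in medium follicles 87.9% ± 1.21 (HMG) and 87.8% ± 0.413 (LMG), and in small follicles 86.6% ± 2.92 (HSG) and 87.9% ± 1.02 (LSG), as means with the SD over 5 libraries. The 6 means lay within the range of the single libraries of HLG and of HSG, but the mean of HLG lay below every library of HMG, LMG and LSG. No test was made, since a sum over chosen members gets none. Single libraries ranged from 77.7% in HLG-5 to 90.3% in LLG-9. The 35 MXLOC members alone held 70.1% ± 2.17 (SD, n = 30), the 8 genes with a span of 681 to 684 bp 12.3% to 21.1% and the 15 other numbered genes 0.852% ± 0.234 (SD, n = 30), with 0.413% to 1.47% in single libraries. By mean FPKM, the first 3 members held 24.1% of the table's total, the first 10 held 53.6% and the first 37 held 86.0%.

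**Figure D2:**
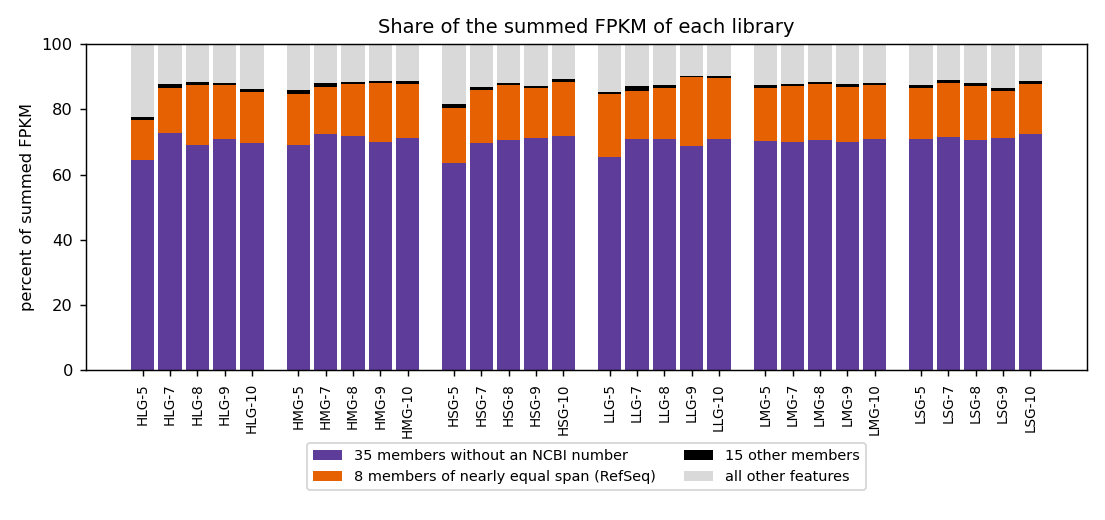
Share of the summed FPKM of each library (percent, vertical axis) held by the 35 members without an NCBI number, the 8 members of nearly equal span (681 to 684 bp), the 15 other members and all other features, for the 30 libraries in their 6 groups. HLG-5 has the smallest share in members, at 77.7%, and LLG-9 the largest, at 90.3%.

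The 10 members with the highest mean FPKM comprised 8 MXLOC features and 2 of the genes with a span of 681 to 684 bp. Gene length is taken out of FPKM, but the lengths used for MXLOC features are not given in the sources used here, so their levels rest on the authors' models. MXLOC_1189582 was the highest, with a mean of 5722 ± 1346 FPKM (SD, n = 30). MXLOC_1165944 followed with 4986 ± 1279 FPKM, MXLOC_291290 with 4944 ± 1056 and LOC108636659 with 4097 ± 1209. These neighbours in the order differed by less than 1 SD over libraries. The next were MXLOC_241915 at 3806 ± 808 FPKM, MXLOC_327930 at 2726 ± 719, MXLOC_228680 at 2459 ± 835 and LOC108636657 at 2379 ± 500. MXLOC_987418 with 1987 ± 688 FPKM and MXLOC_624451 with 1708 ± 477 closed the first 10 (SD, n = 30 each).

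In MXLOC_1189582 the values were 2865, 6169, 6855, 5743 and 5153 FPKM in HLG-5, 7, 8, 9 and 10 and 4544, 3229, 5576, 8091 and 7448 in LLG. They were 4527, 5396, 7526, 6379 and 6202 in HMG and 4596, 5453, 5807, 5339.5 and 6521 in LMG. They were 2381, 4825, 6661, 5348 and 7177 in HSG and 5916, 7133, 5933, 6987 and 5867 in LSG. The fertility classes overlapped at each size, and the low values lay in HLG-5, HSG-5 and LLG-7, each of them absent from the study's list of mapped libraries.

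Several pairs of the highest members varied less in their ratio than either member did alone. Among 1653 pairs of members, the SD of the log2 ratio over 30 libraries was 0.18 to 3.20, with a median of 1.07. The tightest pair was MXLOC_1165944 and MXLOC_291290, whose ratio had a median of 1.01 and stayed between 0.677 and 1.28, although each of them alone varied more than 3-fold. MXLOC_1189582 and LOC108636659 had a ratio of 0.990 to 2.21, with an SD of 0.21 on the log2 scale. The points share libraries and the scaling of FPKM within each, and the members were ranked after their values were seen, so these ratios are a description.

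The 8 genes of 681 to 684 bp carry NCBI numbers from a run of 16 in a row, 108636651 to 108636666, which RefSeq places on 1 chromosome (assembly ARS1.2, names and spans only). The run holds 8 protein-coding genes, each of them a member, and 8 pseudogenes, which are not among the table's features. RefSeq lists 28 genes with a span of 681 to 684 bp, 9 of them in the table, and the ninth was above 0 in 1 library. Means were 4097 FPKM for LOC108636659, 2379 for LOC108636657, 1383 for LOC108636662, 910.2 for LOC108636664, 671 for LOC108636663, 595 for LOC108636665, 457 for LOC108636661 and 179 for LOC108636660. Levels within this family therefore spanned a wide range, and the highest of the family lay above all but 3 members. Genes of nearly equal length with neighbouring numbers may share reads, which was not tested, and each value in the family is uncertain for that reason.

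LOC108636657 had the smallest SD of log2 FPKM over all 30 libraries, 0.30, and was 1 of 2 members within 2-fold of their median in each of them. It was not the smallest after the 4 libraries under 1000 features were left out (0.27, with 5 members below it) or after each library was centred on its members (0.52, with MXLOC_1086046 smallest at 0.24). Its values were 1737, 2059, 3061, 2545 and 1929 FPKM in HLG and 2357, 1785, 2394, 2714 and 3171 in LLG. They were 1929, 2059.96, 3774, 2816 and 2616 in HMG and 1857, 2282, 2191, 2104 and 2583 in LMG. In HSG they were 1486, 1975, 2548, 1980.5 and 2975 and in LSG 1987, 2829, 2331, 2585 and 2723. Every pair of groups overlapped. At the other end of the family, LOC108636660 was at 0.69 FPKM in LLG-7 and at 38.3 to 328 FPKM in the other 29 libraries, with an SD of log2 FPKM of 1.61.

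The members with low means varied more than those with high means. For the 16 members whose mean reached 1000 FPKM, the median SD of log2 FPKM over 30 libraries was 0.48, and the highest library exceeded the lowest by a median of 4.38-fold. For the 26 members at 100 to 1000 FPKM these were 0.64 and 8.38-fold, and for the 16 below 100 FPKM 1.23 and 124-fold. Leaving out the 4 libraries under 1000 features gave median SDs of 0.32, 0.43 and 0.86, in the same order. Over all 30 libraries the smallest SDs belonged to LOC108636657 at 0.30, MXLOC_1437674 at 0.34 and MXLOC_291290 at 0.36, and the largest to MMGT1 at 3.01, PEX2 at 2.49 and NIF3L1 at 2.196. Without the 4 libraries the smallest were those of MXLOC_241915 at 0.18, MXLOC_291290 at 0.22 and MXLOC_1165944 at 0.24, while MXLOC_1437674 was at 0.29. MMGT1 still had the largest, at 2.25, followed by CDKN1A at 1.47 and MXLOC_704891 at 1.46.

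**Figure D3:**
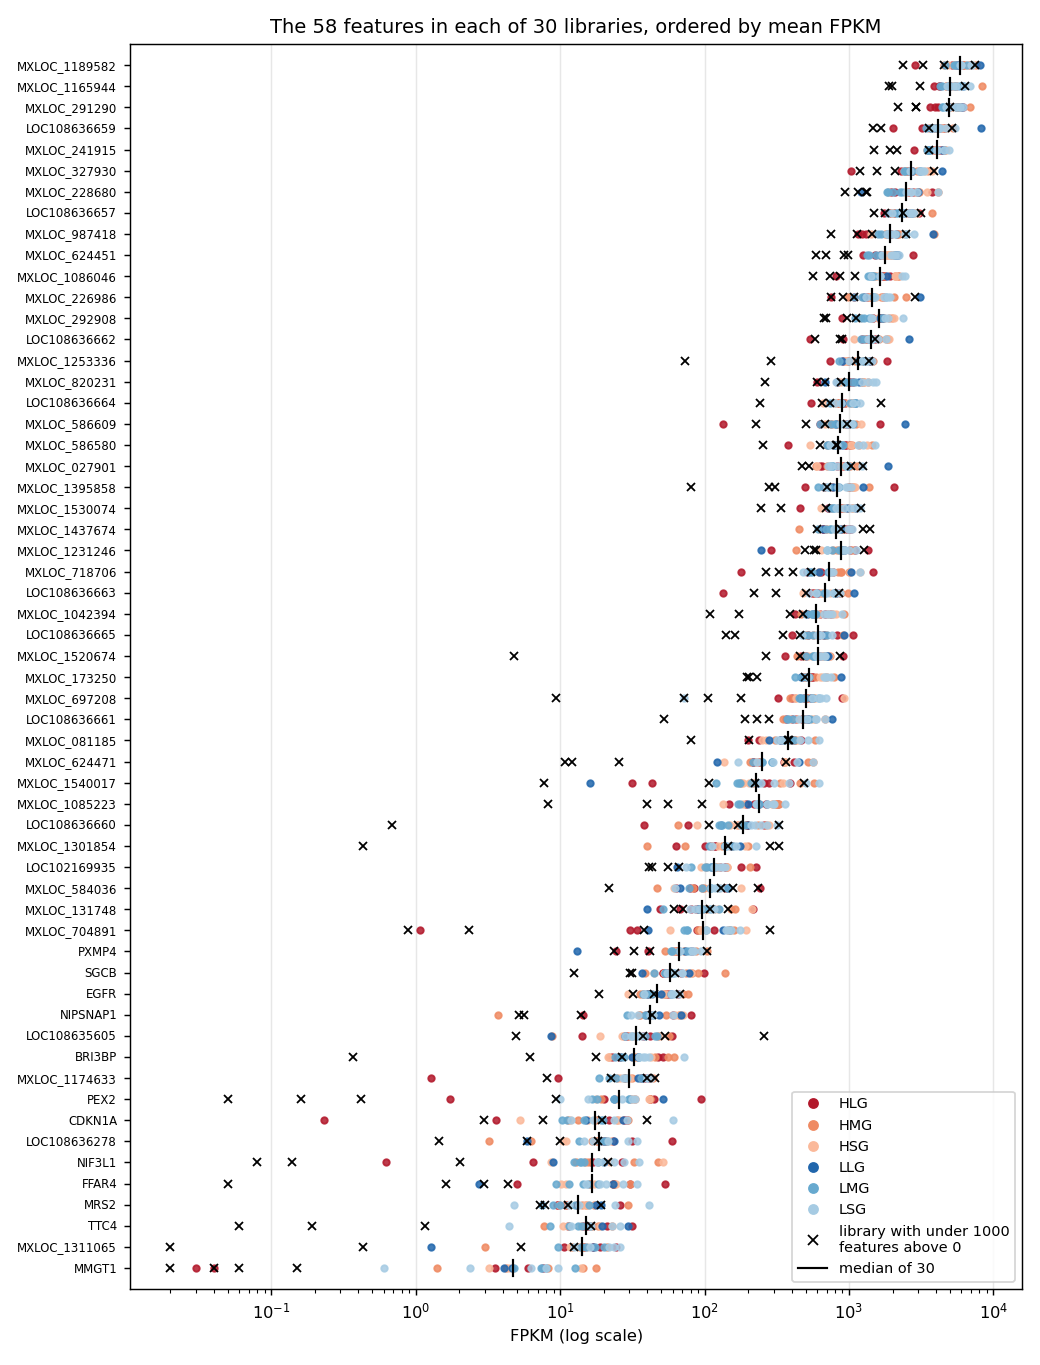
FPKM of the 58 members (rows, highest mean at the top) in each of 30 libraries (points, coloured by group) on a log scale, with crosses for the 4 libraries under 1000 features and a bar at the median. Points lie close together for the first members and spread to values near 0 for MMGT1, PEX2 and NIF3L1.

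The lowest values of the members came from few libraries. In 45 of the 58 members the lowest of 30 values lay in 1 of the 4 libraries under 1000 features. Values below an eighth of the member's median occurred 43 times, with 11 of them in LLG-7, 10 in HSG-5, 6 each in LLG-5 and LLG-10, 4 in HLG-5, 3 in HLG-8, 2 in LLG-9 and 1 in HMG-8. These 8 libraries had 301 to 2446 features above 0 FPKM, whereas the other 22, with no such value, had 2992 to 9256. LLG held 4 of the 8 libraries, and LMG and LSG held none. The part of library content in the differences between groups was not tested beyond leaving these libraries out.

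**Figure D4:**
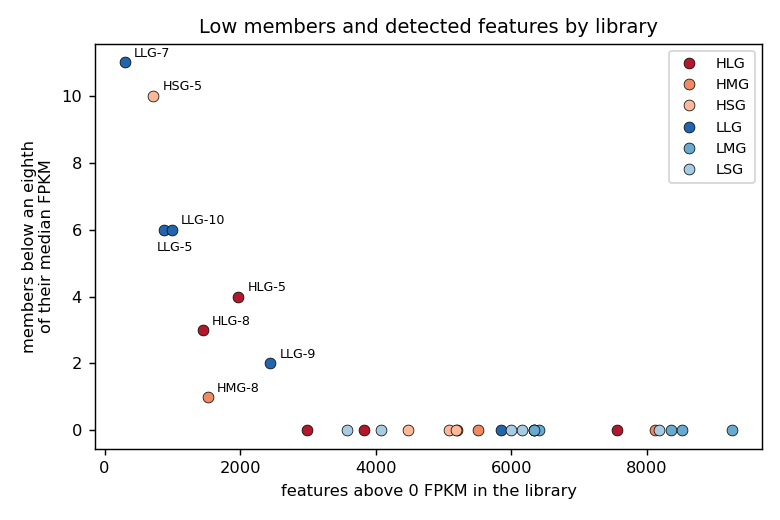
Number of members below an eighth of their own median (vertical axis) against the number of features above 0 FPKM (horizontal axis) for each library, coloured by group. Libraries with such members, named in the plot, all have 2446 features or fewer, and LLG-7 has the most, with 11.

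Among the 15 other numbered genes, LOC102169935 had the highest mean, at 115 FPKM, and MMGT1 the lowest, at 5.51 FPKM. Their spans were 1860 to 212706 bp, the longest being EGFR. Peroxisome biology was represented by PXMP4, a peroxisomal membrane protein, at 65.0 ± 22.5 FPKM, and PEX2, a ubiquitin ligase of peroxisomal protein import, at 26.9 ± 19.0 (SD, n = 30 each). Of 18 peroxisome genes in the table, these 2 were above 0 in every library, and the rest in 2 (PEX6 and others) to 17 libraries (PEX13). In the EGF receptor family and its ligands, EGFR alone of 10 genes in the table was a member, while NRG1 was above 0 in 17 libraries, TGFA in 15, EREG in 13 and ERBB2 in 2. Of 6 inhibitors of cyclin-dependent kinases, CDKN1A (p21, which halts the cell cycle) was a member and the others were above 0 in 5 to 10 libraries. Of 4 sarcoglycans, which anchor the dystrophin complex, SGCB was a member at 60.7 FPKM, and SGCD was above 0 in 22 libraries. These lists were drawn up around members already known, and over all 17945 protein-coding features 0.128% were members. By comparison, 0 of 79 genes with a ribosomal protein symbol, paralogs such as RPL3L and RPL10L included, were above 0 in all libraries. The highest was RPL7, with 22.

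EGFR had steady values for its level, with an SD of log2 FPKM of 0.44. It was at 54.2, 65.4, 40.6, 40.9 and 55.9 FPKM in HLG and at 18.5, 67.9, 49.5, 58.9 and 31.8 in LLG. In HMG it was at 76.8, 70.6, 37.2, 35.8 and 52.5 and in LMG at 40.6, 37.3, 41.0, 43.4 and 39.0. In HSG it was at 44.6, 53.8, 50.8, 29.5 and 43.0 and in LSG at 38.0, 61.4, 58.8, 66.7 and 59.6. The classes overlapped at each size, and LMG was the tightest group. On the log2(FPKM + 1) scale, EGFR differed by 0.10 between the fertility classes when the 3 sizes were averaged, with a 95% interval of -0.48 to 0.68 (limma, adjusted p = 0.981), and by -0.11 (-0.82 to 0.60, adjusted p = 0.935) when large were set against small follicles.

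CDKN1A, by contrast, spread widely. Its values were 29.1, 3.57, 0.23, 27.5 and 21.9 FPKM in HLG and 2.99, 7.65, 14.98, 27.1 and 19.5 in LLG. In HMG they were 29.4, 24.7, 13.3, 11.4 and 17.8, in LMG 19.8, 14.7, 10.2, 19.0 and 11.2, in HSG 40.2, 11.6, 15.6, 5.24 and 25.6, and in LSG 23.5, 11.8, 28.8, 60.6 and 16.8. Its lowest value lay in HLG-8, its highest in LSG-9, and all groups overlapped. High minus low fertility was -0.31 for large, 0.31 for medium and -0.57 for small follicles on the log2 scale, each ± 0.79 (SE, limma, adjusted p of 0.961 to 1).

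The remaining named genes lay between 14.7 and 42.0 FPKM. NIPSNAP1, a mitochondrial protein, had a mean of 42.0 FPKM and its lowest value, 3.72, in HMG-8. MRS2, the magnesium channel of mitochondria, had 14.9 FPKM with 4.82 as its lowest value, and both its lowest and its highest value, 41.2, lay in LSG. Means were 33.4 FPKM for BRI3BP, 18.0 for NIF3L1, 17.6 for FFAR4, a receptor of long-chain fatty acids, and 14.7 for TTC4, a co-chaperone of HSP90, and each of these 4 was below 0.5 FPKM in a library of LLG. LOC108635605 had 41.0 FPKM, with a single high value of 259 in LLG-7, and LOC108636278 had 18.5 FPKM.

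The members were then compared between the fertility classes at each follicle size, in 1 limma fit over the 6058 features that passed a filter on low values, which all 58 did. Among the 58, 0 were called at an adjusted p of 0.05 for any of the 3 sizes, and the share of all features tested that was called was also 0% each time. At an unadjusted p under 0.05, 8 of the 58 members (13.8%) were higher in HLG than in LLG, against 4.8% of all features in either direction. This direction rested on the libraries with few features. Without the 4 of them 9 members passed, 1 higher and 8 lower in HLG, against 5.44% of features, and LLG then had 2 libraries. Leaving out LLG-7 alone gave 6, all higher, against 4.53% of features, and leaving out LLG-8 alone gave 16, all higher, against 4.96%. In medium follicles 1 member (1.72%) passed, against 5.15% of features, and in small follicles 3 (5.17%), against 6.39%. The last 2 shares were no higher than the background.

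By sign alone, 43 of 58 members were higher in HLG than in LLG (61.1% of all features were), with a median log2 fold change of 0.33 beside 0.10 over all features. In medium follicles 48 were higher in HMG (42.8% of all features), with a median of 0.22 beside -0.07. In small follicles 53 were lower in HSG (58.7% of all features), with a median of -0.37 beside -0.09. These signs hold on the deposited scale. After scaling to the same total, 38, 30 and 23 of 58 members were higher in the high than in the low fertility class for large, medium and small follicles in turn (61.6%, 38.8% and 43.2% of all features). After scaling to the geometric mean of the members 23, 32 and 38 were (59.8%, 38.6% and 44.8%). The second scaling centres the members by construction. The first fixes a total of which the members hold most, and the 10 highest alone 53.6%, so it constrains their sum. It does not centre the 58 as counted. Their median log2 fold change was then 0.21, 0.003 and -0.05 for large, medium and small follicles in turn. Counts under either scaling thus do not settle the direction of the members as a whole. Over all features tested, neither scaling moved the median log2 fold change by as much as 0.1. Without the 4 libraries under 1000 features, 17 of 58 were higher in HLG than in LLG (53.7% of all features), and 9 were higher in HSG than in LSG (47.9%).

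**Figure D5:**
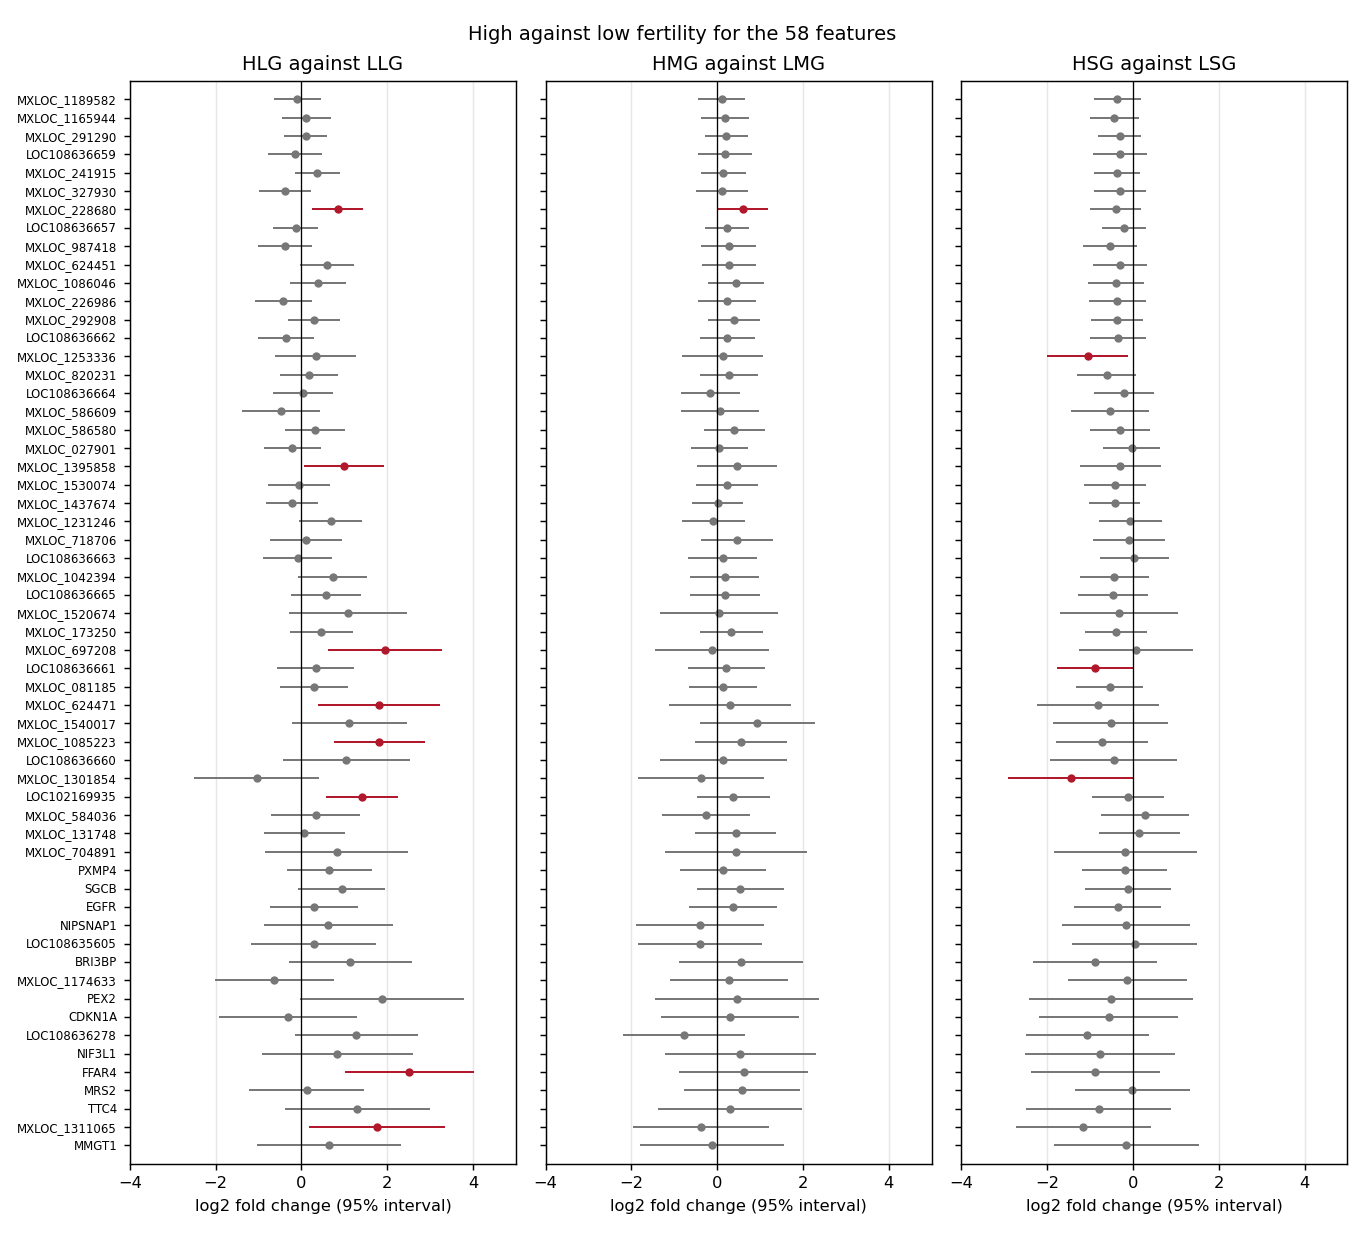
Log2 fold change of high against low fertility with its 95% interval for each of the 58 members (rows, highest mean at the top), in large, medium and small follicles from left to right, from limma on log2(FPKM + 1). Red marks an unadjusted p under 0.05, which 8, 1 and 3 members have, and 0 pass after adjustment.

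The lowest p in large follicles was that of MXLOC_1085223. It was at 147, 267, 194, 220.02 and 325 FPKM in HLG and at 40.1, 8.17, 239, 201 and 55.9 in LLG. The 3 low LLG values came from the 3 LLG libraries under 1000 features, and the other 2 lay within the range of HLG. The log2 fold change was 1.81 ± 0.52 (SE, limma, adjusted p = 0.976), and 0.02 ± 0.35 without the 4 libraries under 1000 features.

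LOC102169935 separated the 2 groups of large follicles. It was at 141, 226, 178, 127 and 138 FPKM in HLG and at 55.9, 43.5, 112, 64.3 and 41.1 in LLG, so that every HLG library lay above every LLG library. The log2 fold change was 1.41 ± 0.41 (SE, limma, adjusted p = 0.976), and 0.89 ± 0.40 without the 4 libraries. Averaged over sizes it was 0.56 ± 0.24 (adjusted p = 0.952), and there it had the lowest p of the members. In medium follicles the values were 143, 205, 114, 103 and 122 FPKM in HMG and 101, 80.5, 104, 118 and 113 in LMG, and in small follicles the means were 109 ± 29.9 in HSG and 117 ± 25.8 in LSG (SD, n = 5 each), so the groups overlapped at both sizes.

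FFAR4 was at 5.04, 53.3, 30.3, 23.4 and 23.3 FPKM in HLG and at 2.96, 0.05, 23.3, 2.75 and 1.63 in LLG. The highest LLG value, in LLG-8, lay inside the range of HLG. The log2 fold change was 2.52 ± 0.73 (SE, limma, adjusted p = 0.976), and 1.25 ± 0.75 without the 4 libraries under 1000 features.

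MXLOC_1301854 went the other way in large follicles. It was at 100.2, 62.9, 111, 117 and 118 FPKM in HLG and at 286, 146, 176, 153 and 330 in LLG, without overlap, yet the log2 fold change of -1.04 ± 0.71 had an adjusted p of 0.983 (limma). The SE is that of 1 spread shared by all 6 groups, and in HSG-5 this feature stood at 0.43 FPKM against 109.9 to 189 in the other HSG libraries. Without the 4 libraries under 1000 features the SE was 0.45 and the fold change -0.72, and averaged over sizes it was -0.40 ± 0.22 in place of -0.95 ± 0.41.

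Groups did not overlap for these 2 of 58 members (3.45%) in large follicles, against 0.132% of all features tested. In medium follicles this held for 3 members (5.17%), against 1.11% of features, and in small follicles for 0, against 0.248%. The 3 in medium follicles were MXLOC_1086046, MXLOC_1085223 and MXLOC_228680, each higher in HMG, the first of them named here after its values were seen. A feature that is 0 in both groups always overlaps, so the background includes many features that could not be separated.

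MXLOC_228680 had the lowest p in medium follicles. It was at 3064, 4146, 3039.5, 2506 and 2902 FPKM in HMG and at 2251, 1835, 2018, 1874 and 2314 in LMG. All HMG libraries lay above all LMG libraries, with a log2 fold change of 0.59 ± 0.28 (SE, limma, adjusted p = 0.947). In large follicles it was at 2076, 3768, 1951, 2781 and 2597 FPKM in HLG and at 1334, 1305, 2985, 1218 and 941 in LLG, where LLG-8 alone lay inside the HLG range (0.84 ± 0.28, adjusted p = 0.976). In small follicles it was at 1149, 3459.5, 2445, 1862 and 2991 in HSG and at 2701, 2689.6, 2484, 2955 and 4137 in LSG, with overlap. The next in medium follicles, MXLOC_1540017, differed by 0.94 ± 0.66.

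MXLOC_1253336 had the lowest p in small follicles, with 73.5, 951, 949, 1239 and 938 FPKM in HSG and 1004, 1339, 1450.1, 1314 and 1194 in LSG. The groups overlapped at HSG-9, and HSG-5 was far below the rest. The log2 fold change was -1.06 ± 0.46 (SE, limma, adjusted p = 0.7099), and -0.30 ± 0.23 without the 4 libraries, of which HSG-5 is 1. LOC108636661, of the 681 bp family, was at 52.2, 391, 519.8, 433 and 551 FPKM in HSG and at 449, 679, 591, 514 and 587 in LSG, with a log2 fold change of -0.88 ± 0.43 and an adjusted p of 0.776 (limma).

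Averaged over sizes, 0 members were called (0% of features), and 3 (5.17%) had an unadjusted p under 0.05, against 3.95% of features. The 95% interval lay within 2-fold in either direction for 41 of 58 members in this average, but for 19, 23 and 18 in large, medium and small follicles. At a single size the intervals of most members thus included a difference of 2-fold. The difference between sizes in the effect of fertility was tested as an interaction, where 0 members were called (0% of features) and 7 (12.1%) had an unadjusted p under 0.05, against 4.67%. The lowest were those of MXLOC_1085223 and MXLOC_228680, both with an adjusted p of 0.895 in limma.

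Between follicle sizes, 0 members were called when medium follicles were set against large ones (0% of features), small against medium ones (0.0165%) or small against large ones (0%). At an unadjusted p under 0.05, 8 members (13.8%) were lower in large than in medium follicles, against 11.5% of features, and 7 (12.1%) were lower in large than in small ones, against 8.42%. In medium against small there were 0, against 5.13%. By sign, 55 of 58 were lower in large than in medium follicles (78.3% of features), with a median log2 fold change of -0.31 beside -0.25 over all features, and 51 were lower in large than in small ones (72.4%), with -0.28 beside -0.19. After scaling to the geometric mean of the members, which centres them by construction, 16 and 17 were lower (74.2% and 67.9% of features). Without the 4 libraries under 1000 features, of which 3 are of large follicles, 34 and 46 of 58 were lower (69.7% and 67% of features). Then 3 and 5 of the 58 members, all lower, had an unadjusted p under 0.05, against 5.24% and 5.75% of features.

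MXLOC_704891 showed the strongest difference between sizes. It was at 1.07, 88.7, 30.3, 34.1 and 115 FPKM in HLG and at 0.88, 38.3, 133, 40.7 and 2.33 in LLG. In medium follicles it was at 146, 160.4, 149, 90.1 and 93.6 in HMG and at 76.0, 75.8, 102, 149 and 71.5 in LMG. In small follicles it was at 284, 195, 93.9, 57.4 and 103 in HSG and at 103, 141, 146, 176 and 153 in LSG. Of the 10 large follicle libraries, 7 lay below the lowest medium one, with a median of 36.2 FPKM beside 98.0 in medium and 143 in small follicles. The log2 fold change was -2.26 ± 0.57 in large against medium (SE, limma, adjusted p = 0.241) and -2.58 ± 0.57 in large against small (adjusted p = 0.161). Without LLG-8 both passed the threshold, at -2.63 (adjusted p = 0.0348) and -2.95 (0.0213), and the second also without HLG-10, at -2.82 (0.0477). When the 4 libraries under 1000 features were left out, they were -1.18 ± 0.48 and -1.36 ± 0.49, with adjusted p of 0.788 and 0.765.

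MXLOC_1540017 was lower in large than in small follicles by -1.85 ± 0.46 (SE, limma, adjusted p = 0.373), and by -1.72 ± 0.44 without the 4 libraries. Its values were 7.76, 166 and 390.5 FPKM in large follicles (lowest, median and highest of 10 libraries), 121, 194 and 569 in medium and 185, 325 and 621 in small ones. PXMP4 had 13.1, 41.3 and 81.7 FPKM in large, 53.2, 69.3 and 104 in medium and 59.8, 76.8 and 104 in small follicles. Its log2 fold change was -0.81 ± 0.34 in large against medium and -0.92 ± 0.34 in large against small (adjusted p = 0.390 and 0.557), and -0.81 ± 0.32 and -0.86 ± 0.33 without the 4 libraries. MMGT1 had 0.02, 1.81 and 7.66 FPKM in large, 1.40, 7.72 and 17.7 in medium and 0.15, 4.58 and 13.8 in small follicles. In medium against small, MXLOC_1253336 (0.44 ± 0.32) and MMGT1 (0.76 ± 0.58) had the lowest p, and neither differed by more than the spread between libraries.

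Over the 6 groups, the lowest mean lay in LLG for 32 of 58 members, in HLG for 11 and in HSG for 10, and the highest in LSG for 27 and in HMG for 14. The highest group mean exceeded the lowest by a median of 1.54-fold, from 1.18-fold in MXLOC_1520674 to 5.22-fold in MMGT1, both named after their values were seen. Without the 4 libraries under 1000 features the lowest mean lay in HLG for 21 members, in LMG for 19 and in LLG for 10, so the order of the groups rested on these libraries. LSG still held the most highest means, with 20, and LLG, then with 2 libraries, went from 6 to 18. Over all 30 libraries the summed FPKM was also highest in LSG and HMG (means of 73182 and 72139) and lowest in LLG (59321). The part of these totals in the order of the groups was not tested.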

How the data were processed

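The authors deposited FPKM values (fragments scaled by exon length and by the mapped total) with 2 decimals. According to the study's methods, alignments had to be unique with fewer than 5 mismatches, duplicates were removed with picard, and the authors computed FPKM with Cufflinks v2.2.1. The aligner and genome build are not given in the sources used here. Names and spans were looked up by NCBI number in RefSeq (ARS1.2), where 17945 of 17946 numbers matched.

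The members and lists were chosen with earlier results of these data known. Values were fitted as log2(FPKM + 1), which understates the change of low features, with limma 3.58.1 (R 4.3.3) and a robust, trended prior over the 6 groups in 1 fit. Features above 0.5 FPKM in at least 5 libraries were tested (6058), two-sided, with Benjamini-Hochberg adjustment over all of them in each of 8 contrasts. The step was tried on the same libraries dealt at random to the groups, with known changes put into some features of HLG. The outcome of that trial is not given here. The rest was done with Python 3.11.15 (matplotlib 3.10.9, scipy 1.17.1, pandas 2.3.3, numpy 2.4.6). Named with values were the 10 members with the highest mean, those with an NCBI number, the 2 with the lowest p in each contrast, the 3 with the largest and the 3 with the smallest SD of log2 FPKM, and 3 features on each side of the criterion. No pairing of samples by library number was seen: residuals of same-numbered libraries correlated by at most 0.124, and 7 of 30 libraries correlated best with their own number. Values of 0 are frequent among the features and weaken such correlations, so a pairing is not excluded. Alternatives were another pseudocount, no filter, 2 scalings, only the groups compared, quality weights, a replicate block, and libraries left out singly or in sets of 4, of which the set under 1000 features was chosen after the data were seen.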

Additional observations from a re-analysis of the deposited data

Results flagged for a closer look

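In 84 sets of 5 libraries, searched for the share of the members, the count of members far below their median and the FPKM of the 10 highest members, 13 values lay far from the others of their group by Dixon's criterion for 5 values (a gap of over 0.71 of the range). Some libraries gave more than 1 of these values. Chance alone gives about 4.2, or 1 set in 20, if the sets are independent and normally distributed. These sets share libraries, and a count that is 0 in all but 1 library of a group always passes, so that figure is a rough guide. HSG-5 accounted for 4 of the 13 values. Its MXLOC members held 63.4% of its FPKM, against 69.8% or more in the other HSG libraries. It had 10 members below an eighth of their median, against 0 in each of the others. MXLOC_1165944 was at 1902 FPKM in HSG-5, against 4877 or more, and MXLOC_291290 at 2198, against 4895 or more.

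HLG-5 stood out by a share of 77.7% of FPKM in the members, against 86.3% or more in the other HLG libraries, and by 1026 FPKM of MXLOC_327930, against 2281 or more. HMG-5 had the lowest share of HMG, at 85.8%, against 88.0% or more. HMG-8 was the high library of its group for MXLOC_1165944, with 8314 FPKM against at most 5431, and for MXLOC_987418, with 3906 against at most 2219, and it had 1 member below an eighth of its median, against 0. LMG-10 was high for MXLOC_241915, with 4542 FPKM against at most 3625. MXLOC_228680 was high in LLG-8, with 2985 FPKM against at most 1334, and in LSG-10, with 4137 against at most 2955. The causes were not tested.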

How the results depend on the processing

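Read totals were not used here, so the number of fragments behind a low value is not given. At a single size, the 95% intervals of most members included a difference of 2-fold. The count of members called at an adjusted p of 0.05 stayed 0 in each contrast under the alternatives, except that leaving out single libraries gave 0 to 1 in large against medium and in large against small, where MXLOC_704891 was called. Counts below are members at an unadjusted p under 0.05, and their causes were not tested.

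In HLG against LLG, 8 (all higher in HLG) became 16 after scaling to the same total (12 higher, 4 lower), 21 after scaling to the geometric mean of the members (5 higher, 16 lower), 19 with quality weights (all higher) and 15 without the 4 libraries absent from the mapping list (7 higher, 8 lower). Without those under 1000 features it was 9 (1 higher, 8 lower). Of all features, 4.8% passed at first, and 5.28%, 5.66%, 10.3%, 5.62% and 5.44% in these settings in turn. Scaling to the geometric mean centres the members by construction. In HMG against LMG, 1 became 0 under both scalings and with weights, 8 with only the groups compared, 3 without the 4 absent libraries and 4 without those under 1000 features. The share of all features was 4.49% to 5.74% in these settings, beside 5.15% at first. In HSG against LSG, 3 became 1 without a filter, at the same total or with only the groups compared, 0 with the geometric mean, weights or either set left out, and 5 with the replicate block. Here 2.24% to 6.11% of all features passed, beside 6.39% at first. Averaged over sizes, 3 became 1 with a pseudocount of 0.1, 6 (3 higher, 3 lower) and 8 (2 higher, 6 lower) under the scalings, and 5 with weights or without the absent libraries. Between 3.95% and 4.51% of all features passed in these settings, beside 3.95% at first. In large against medium, 8 (all lower in large) became 13 with weights and 3 without the libraries under 1000 features, all lower, and 12 with the geometric mean (9 higher, 3 lower). The background moved as well, from 11.5% of all features to 23.4%, 5.24% and 11.4% in turn. In medium against small, 0 became 1 without either set, against 4.34% of features without the absent libraries and 4.3% without those under 1000 features. In large against small, 7 (all lower in large) became 15 with the geometric mean (13 higher, 2 lower), where 7.48% of features passed, beside 8.42% at first. In the interaction 7 became 4 with a pseudocount of 0.1 and 12 with the geometric mean, and the share of features under these settings is not given here. Leaving out single libraries gave 6 to 16, 0 to 1, 0 to 5, 2 to 7, 5 to 13, 0 to 0, 4 to 21 and 4 to 10 in these 8 contrasts. Before the interaction, the shares of all features were then 4.28% to 6.23%, 4.44% to 5.35%, 5.87% to 6.57%, 3.48% to 4.64%, 9.14% to 14.2%, 4.7% to 6.29% and 6.8% to 11.9%.

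Under the replicate block the counts were 10, 1, 5, 3, 11, 0 and 9 in the contrasts before the interaction, and it changed no call. The shares of all features were 4.99%, 5.02%, 6.11%, 4.01%, 11.5%, 5.08% and 8.4% in turn.

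The number of members was 58, 49 at 0.5 FPKM or more, 47 at 1 FPKM or more, 68 with 1 library allowed at 0, 75 without the 4 libraries under 1000 features and 58 to 61 without single libraries. Over features of at least 1 FPKM the share of the members was 89.3% in HMG, 90.6% in LMG and 89.2% in LSG. Over all features, leaving out single libraries gave shares of 84.97% to 87.7% in HLG, 87.7% to 88.5% in HMG and 86.0% to 87.9% in HSG. In the low fertility groups they were 87.5% to 88.8% in LLG, 87.7% to 88.0% in LMG and 87.6% to 88.2% in LSG. The log2 fold change of the member with the lowest p kept its sign and its side of the threshold in 269 cases and passed it in 3.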

Other observations

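Without the 4 libraries under 1000 features, 17 further features were above 0 in all of the other 26, of which 9 were MXLOC features and 8 had an NCBI number. Together they held 0.587% of the FPKM. The highest was MXLOC_1572623, with a mean of 99.02 FPKM over the 26 libraries. MAP9, a protein of the mitotic spindle, had 12.4 FPKM and CD27, a receptor of lymphocytes, 6.54 FPKM. ITGB8, an integrin subunit, had 2.54 FPKM and HSPA4L, a heat shock protein, 1.62 FPKM. These genes were named after their values were seen.

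RefSeq lists 2 genes of the mitochondrial genome with a span of 681 or 684 bp, the spans of the 8 short members. Mitochondrial genes were not among the table's features, and the sequences were not compared here.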
